A study of Mus musculus with 2 samples.

Results

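The genes of translation initiation factor eIF2, of its exchange factor eIF2B and of the eIF2 kinase PERK (Eif2ak3) were followed by ribosome profiling of mouse spinal cord. The genes were chosen by a list of 10 Ensembl identifiers paired with symbols, and 9 of these had values among the 12530 mouse genes listed. Read values of Eif2ak1, which encodes the kinase HRI and completes that list, were not analysed here, so PERK alone represents the kinases in all comparisons of reads. There were 2 libraries, 1 from wild-type mice and 1 from mice heterozygous for the C201R allele of Gars (GarsC201R/+), the gene of glycyl-tRNA synthetase. Each library was made from the lysates of 3 animals, pooled before the ribosome-protected fragments were isolated after RNase I digestion. The labels give no strain, age or sex of the animals. The series was designed to compare ribosome occupancy at glycine codons, and the values analysed here are read totals per gene.

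eIF2 is the GTP-binding factor that brings the initiator methionyl-tRNA to the small ribosomal subunit. After each start codon is recognised it is released with GDP, and eIF2B exchanges the GDP for GTP so that it can be used again. Kinases that sense different stresses, PERK in the endoplasmic reticulum, HRI for haem and mitochondrial stress, PKR for double-stranded RNA and GCN2 for uncharged tRNA and stalled ribosomes, phosphorylate the alpha subunit of eIF2. Phosphorylated eIF2 then holds eIF2B in an inactive state, which lowers general initiation and raises translation of ATF4, the integrated stress response. In the nervous system, inherited mutations of any eIF2B subunit cause vanishing white matter disease, in which glial cells of the white matter fail.

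The libraries held 7770935 gene reads in wild type and 3491159 gene reads in the heterozygote, so the wild-type library was 2.23-fold deeper. With a single library of each genotype, differences could not be checked against replicates and carry no p-value. Intervals are at 95% and hold the error of counting alone, so they speak of these libraries and not of the genotypes. ERCC spike-ins took 0.00669% of the listed reads in wild type and 0.650% in the heterozygote and were not used for scaling, so directions are relative to the gene reads. The identifiers of other genes could not be paired with symbols here, so cell type markers of spinal cord, Gars itself and the other genes of the pathway were not analysed here. In bulk tissue, fewer cells of a type and fewer reads per cell cannot be told apart. There was no RNA library, so mRNA amount and ribosome load cannot be told apart either.

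The upstream sequences of the 4 genes whose counting intervals excluded equal levels are shown. The intervals of 51.9% of all genes with at least 100 reads over both libraries did so too. Those of Eif2s1 and Eif2ak3 did not do so under every processing alternative. The choice serves display alone, and no link between these sequences and the ratios was tested. Each is the 120 bases just before the annotated gene, 5′ to 3′ on the gene's own strand, from RefSeq on build GRCm38.p6. Capitals mark GGGCGG, the GC box, CCAAT, the CCAAT box, and GCGCATG, part of the motif bound by NRF1, on either strand. Eif2s1 was read at chr12:78861952-78862071 (+), Eif2b2 at chr12:85219361-85219480 (+), Eif2b4 at chr5:31193140-31193259 (-) and Eif2ak3 at chr6:70844364-70844483 (+).
Eif2s1: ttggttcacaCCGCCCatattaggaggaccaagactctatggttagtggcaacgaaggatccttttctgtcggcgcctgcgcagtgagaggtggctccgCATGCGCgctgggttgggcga
Eif2b2: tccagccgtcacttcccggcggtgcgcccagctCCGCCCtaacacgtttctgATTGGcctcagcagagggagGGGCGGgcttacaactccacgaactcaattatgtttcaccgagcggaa
Eif2b4: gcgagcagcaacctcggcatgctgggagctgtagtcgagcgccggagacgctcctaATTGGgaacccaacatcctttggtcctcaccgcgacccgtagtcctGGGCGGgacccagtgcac
Eif2ak3: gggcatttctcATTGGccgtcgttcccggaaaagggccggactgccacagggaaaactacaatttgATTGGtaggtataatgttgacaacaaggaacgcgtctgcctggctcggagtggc

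A promoter window from 250 bases before to 50 bases after a start was found for 9 of the 10 genes of the list, Eif2ak1 included and Eif2b3 not, among 32851 windows of 27025 genes. The ratio of observed to expected CpG was above the median of all windows, 0.384, in all 9, from 0.411 in Eif2b5 to 1.22 in Eif2b1, which exceeded 99.7% of windows. That median, and the motif shares below, are over windows of coding and noncoding genes alike. Values for coding genes alone were not computed. GGGCGG was in 6 of the 9 windows, against 35.7% of all windows, and CCAAT in 5 of the 9, against 37.4%. The ETS-type motif CCGGAAG was in the windows of Eif2ak1, Eif2b2 and Eif2b4, against 8.86% of all windows. GCGCATG was in those of Eif2s1 and Eif2b5, against 3.91%, and TATAAA in that of Eif2s1 alone, against 13.6%. TGATGNAAT, a composite site of the type bound by ATF4 and C/EBP factors, was in 0 of the 9 windows and in 0.965% of all windows. The motifs, each searched on both strands, were chosen with the sequences in view, CCGGAAG and TATAAA do not occur in the printed stretches, and no value of these libraries measures promoter use.

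Several of the genes lie back to back with another coding gene. Eif2s1 (chr12:78862072-78887010) starts 64 nt from Atp6v1d, Eif2b1 (chr5:124570214-124579131) starts 17 nt from Gtf2h3, and Eif2b4 (chr5:31187558-31193139) starts 123 nt from Snx17, each pair on opposite strands. Such a coding neighbour within 1000 nt was found for 3 of the 9 genes with a known strand, Eif2ak1 included, and for 6.57% of 17491 coding genes. Within their own spans, Eif2ak3 (chr6:70844484-70905241) overlaps the snoRNA gene Gm23346 and Eif2b3 (chr4:117019399-117086852) overlaps the pseudogene Gm22335. Eif2s2 (chr2:154871410-154892906), Eif2b2 (chr12:85219481-85226628) and Eif2b5 (chr16:20498795-20509325) overlap no other RefSeq gene. Eif2s3x (chrX:94188709-94212651) overlaps none either, but has a pseudogene, Eif2s3x-ps1, on chromosome 15 and a Y-linked homologue, Eif2s3y. Copies of the other genes were not searched for. The counting of reads that match several places is not given, so the reads of Eif2s3x, and of any other gene with copies, are uncertain.

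Within each library the eIF2B genes had, on average, more reads per length than the eIF2 genes, though Eif2b3 and Eif2s1 were not told apart. RPKM, the reads scaled by gene length and by the reads of the library as deposited by the authors, is the level used here to compare genes. Its mean over the 5 eIF2B genes was 20.3 in wild type and 20.9 in the heterozygote. Over the 3 eIF2 genes it was 3.36 and 3.51. The mean RPKM of eIF2B was thus 6.04-fold that of eIF2 in wild type and 5.95-fold in the heterozygote. Without scaling to length, the mean reads per gene were 3.93-fold and 3.72-fold higher for eIF2B. The gene lengths behind the RPKM values ran from 1605 nt for Eif2b2 to 4513 nt for Eif2ak3, and which part of each gene model was counted is not stated. If these lengths include untranslated regions, a gene with long ones has a lower RPKM for the same reads on its coding sequence. The unknown counting of reads that match several places limits the comparison of eIF2B with eIF2 as well.

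Eif2b2 (ENSMUSG00000004788), which encodes the beta subunit of eIF2B, had the highest level of the 9 genes in both libraries. Its RPKM was 37.4 in wild type, above 85.4% of all listed genes, and 48.7 in the heterozygote, above 88.6%. Eif2b4 (ENSMUSG00000029145), which encodes the delta subunit, followed in wild type with an RPKM of 26.1, ahead of Eif2b5 with 21.0. In the heterozygote these genes changed places, with 19.5 for Eif2b4 and 21.0 for Eif2b5 (ENSMUSG00000003235), the catalytic epsilon subunit. Their counting interval in that library did not separate them. Eif2b1 (ENSMUSG00000029388), the alpha subunit to which the regulatory part of eIF2B owes much of its sensitivity to phosphorylated eIF2, had an RPKM of 11.4 and 9.74. Eif2b3 (ENSMUSG00000028683), the gamma subunit and partner of epsilon, was the lowest of eIF2B with 5.81 and 5.45.

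The eIF2 genes lay below the median of all listed genes, whose RPKM was 8.40 in wild type and 8.63 in the heterozygote. Eif2s1 (ENSMUSG00000021116), which encodes the alpha subunit that the kinases phosphorylate, had an RPKM of 4.67 and 6.51. Eif2s2 (ENSMUSG00000074656), the beta subunit that contacts eIF2B and eIF5, had 3.08 and 2.46. Eif2s3x (ENSMUSG00000035150), the X-linked gene of the GTP-binding gamma subunit, was the lowest of the 9 genes with 2.32 in wild type, above 19.0% of listed genes, and 1.56 in the heterozygote, above 11.6%. Eif2ak3 (ENSMUSG00000031668) had 9.59 and 7.93, below Eif2b1 and above Eif2s1 in both libraries, though the intervals told it from Eif2b1 in neither and from its lower neighbour in wild type alone. The intervals told apart 5 of the 8 neighbouring pairs in the wild-type order of levels and 3 of 8 in the heterozygous order, and 5 of the 9 genes had the same rank in both libraries. Beyond Eif2b4 and Eif2b5, Eif2s1 and Eif2b3 changed places, and neither library separated those neighbours (rate ratio 1.24, 0.981 to 1.58, in wild type and 1.19, 0.856 to 1.67, in the heterozygote).

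**Figure D1:**
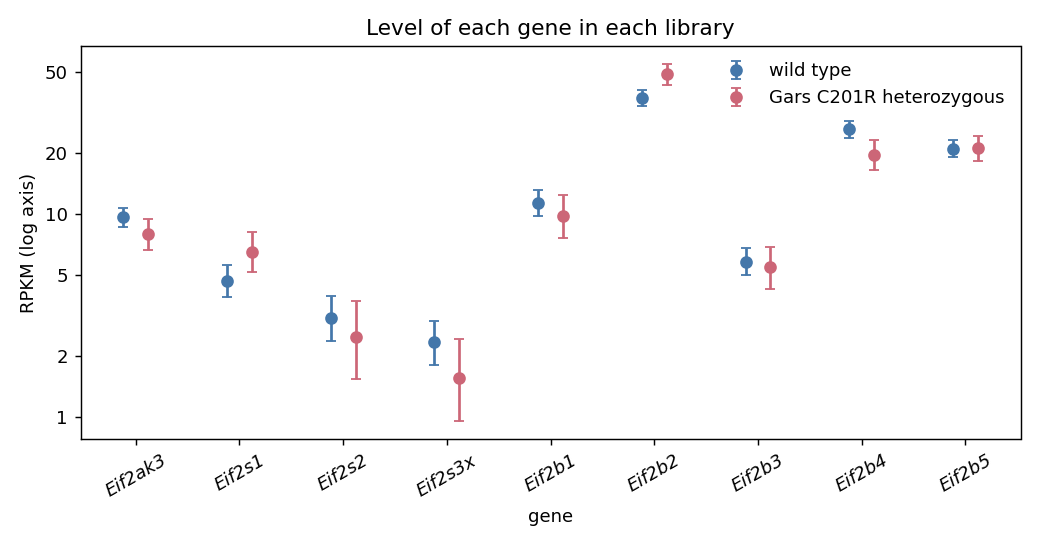
RPKM of the 9 genes in the wild-type (blue) and Gars C201R heterozygous (red) library, on a log axis. Points are the deposited values and bars the 95% Poisson intervals of the reads. Eif2b2 is highest in both libraries, at 37.4 and 48.7, and Eif2s3x lowest, at 2.32 and 1.56.

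None of the genes with enough reads differed by 1.5-fold or more between the libraries. The rule for a call asked for at least 100 reads over both libraries, a counting interval that excluded equal levels and, after TMM scaling (a scaling by the bulk of the genes), a ratio of at least 1.5-fold. Of the 9 genes, 7 had enough reads, and 0 were called higher and 0 lower. By the same rule 8.14% of the 9726 tested genes were called higher and 11.2% lower, 19.3% in all, and 80.6% of tested genes differed by less than 1.5-fold. With 7 genes tested, 0 calls says little about the group beside that background. Without the fold limit, 2 genes, Eif2s1 and Eif2b2, were higher and 2, Eif2b4 and Eif2ak3, were lower. This is 57.1% of the 7, near the background of 51.9% of tested genes (23.7% higher and 28.2% lower). The ratio was above 1 for these first 2 genes and below 1 for the other 7. The median log2 ratio was -0.27 over the 9 genes and -0.14 over the 7 tested, against -0.034 over all tested genes. Of the genes below 1, only Eif2b4 and Eif2ak3 had intervals that excluded equal levels, and the sign of Eif2b5 changed with the scaling. The share of all genes below 1 was not computed, so these signs say little about the group.

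For eIF2, Eif2s1 had a ratio above 1 and Eif2s2 and Eif2s3x had ratios below 1, though the intervals of the latter 2 included equal levels. Eif2s1 had 124 reads in wild type and 78 in the heterozygote, where 57.8 would have matched the wild-type level. Its log2 ratio was 0.43 (0.0042 to 0.85), a ratio of 1.35. The interval excluded equal levels by the least possible margin, as 78 was the smallest read number that could do so. With the wild-type library thinned at random to the depth of the other, the interval included equal levels (-0.11 to 0.92). Eif2s2 had 61 and 22 reads and a log2 ratio of -0.37 (-1.14 to 0.35). Eif2s3x had 66 and 20 reads and a log2 ratio of -0.61 (-1.42 to 0.12), a ratio of 0.653. Both had fewer than 100 reads in all. At the wild-type reads of Eif2s2, only observed differences of at least 1.55-fold upwards or 1.78-fold downwards could have been told from equal levels.

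Summed over the 3 genes, eIF2 had 251 reads in wild type and 120 in the heterozygote, a log2 ratio of 0.036 (-0.29 to 0.36). Without Eif2s1 the sum was 127 and 42 reads, with a log2 ratio of -0.49 (-1.04 to 0.018). Eif2s1 was the only eIF2 gene with a ratio above 1, so this restates the ratios of the single genes. Eif2s1 made up 46.4% of the summed RPKM of eIF2 in wild type and 61.8% in the heterozygote. The share of Eif2s2 was 30.6% and 23.4%, and that of Eif2s3x was 23.1% and 14.8%. Set directly against each other, the ratio of Eif2s1 was 2.08-fold that of Eif2s3x (1.14 to 3.90) and 1.74-fold that of Eif2s2 (0.964 to 3.23). Such a ratio of ratios is free of the scaling between libraries, and its interval excluded 1 for Eif2s3x and not for Eif2s2.

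For eIF2B, the interval of the summed reads included equal levels, while those of Eif2b2 and Eif2b4 excluded them. The intervals of 51.9% of all tested genes excluded equal levels too, so this is no trait particular to the complex. The 5 genes had 1643 reads in wild type and 744 in the heterozygote, or 0.0211% and 0.0213% of the gene reads. The log2 ratio of the sum was -0.042 (-0.17 to 0.084), so the counting interval left room for a difference of at most 0.17 on the log2 scale. Leaving out Eif2b2 moved it to -0.23 (-0.38 to -0.070), and no other removal made the interval exclude equal levels. Eif2b2 was the only eIF2B gene with a ratio above 1, so this restates the ratios of the single genes. Leaving out Eif2b4 moved it to 0.075 (-0.068 to 0.22).

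Within eIF2B, Eif2b2 (beta) had the highest ratio and Eif2b4 (delta) the lowest, with the remaining regulatory subunit, Eif2b1, between them. Eif2b2 had 467 reads in wild type and 275 in the heterozygote, against 217.8 for the same level, and a log2 ratio of 0.34 (0.12 to 0.55). Eif2b4 had 411 and 139 reads, against 191.6 for the same level, and a log2 ratio of -0.46 (-0.75 to -0.18). Relative to the scaled wild-type level, Eif2b2 was thus at a ratio of 1.26 and Eif2b4 at 0.726. The ratio of Eif2b2 was 1.74-fold that of Eif2b4 (1.36 to 2.24). This pair was picked as the highest and lowest ratio of the complex, and the interval does not allow for that choice. Eif2b2 made up 36.8% of the summed RPKM of eIF2B in wild type and 46.6% in the heterozygote, and Eif2b4 made up 25.7% and 18.7%.

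The remaining eIF2B genes did not differ detectably at this depth. Eif2b5, which carries the exchange activity, had 417 and 189 reads, almost the 194.4 of an equal level, and a log2 ratio of -0.041 (-0.30 to 0.21). At its wild-type reads, the smallest observed difference whose interval excluded equal levels was 1.18-fold upwards or 1.21-fold downwards. A true difference of that size could still have been missed. Eif2b1 had 178 and 69 reads and a log2 ratio of -0.27 (-0.69 to 0.14). Eif2b3 had 170 and 72 reads and a log2 ratio of -0.14 (-0.56 to 0.27). Eif2b5 kept 20.6% and 20.1% of the summed RPKM of the complex, Eif2b1 11.2% and 9.33%, and Eif2b3 5.73% and 5.22%.

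**Figure D2:**
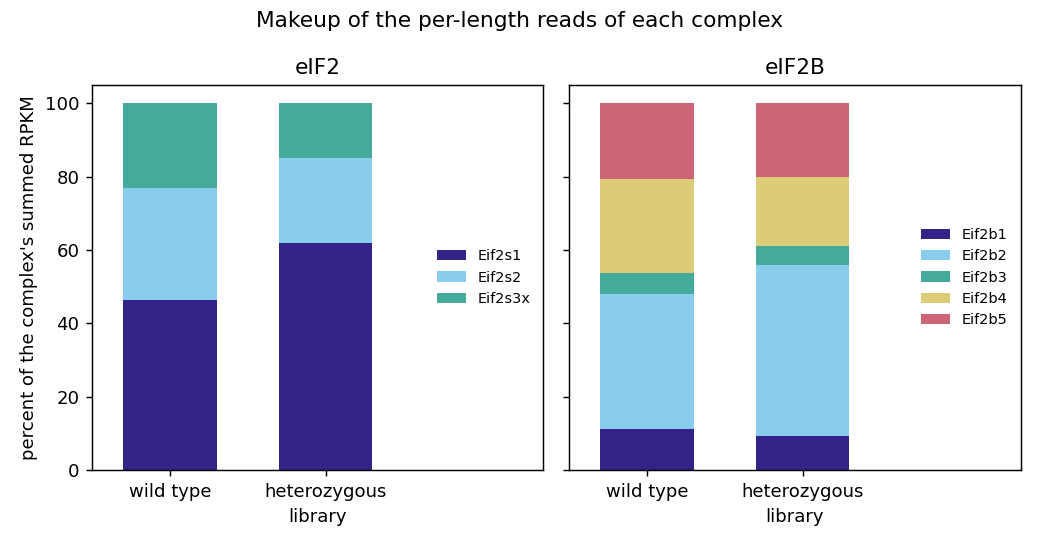
Percent of the summed RPKM of eIF2 (left) and eIF2B (right) taken by each gene in the wild-type and the heterozygous library, stacked to 100. Eif2s1 takes 46.4% and 61.8% of eIF2, and Eif2b2 takes 36.8% and 46.6% of eIF2B.

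**Figure D3:**
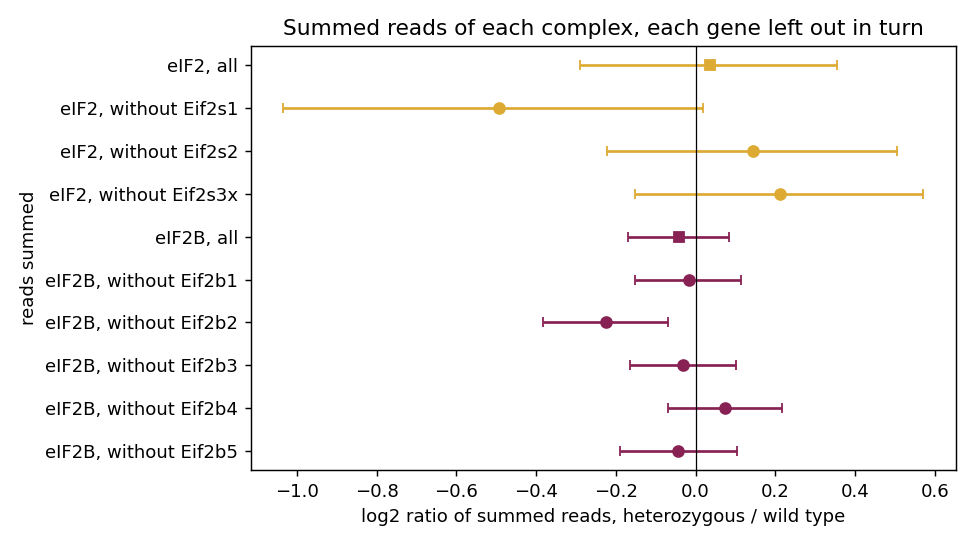
Log2 ratio of the summed reads of each complex, heterozygous over wild type, with all its genes (squares) and with each gene left out (circles). Bars are 95% counting intervals. The sum of eIF2 moves to -0.49 without Eif2s1 and that of eIF2B to -0.23 without Eif2b2.

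The kinase PERK had fewer scaled reads in the heterozygous library, by a margin that varied with the scaling and with thinning. Eif2ak3 had 337 reads in wild type and 126 in the heterozygote, against 157.1 for the same level. Its log2 ratio was -0.32 (-0.63 to -0.019), a ratio of 0.802. With scaling to total gene reads it was -0.26 (-0.57 to 0.034) and with upper-quartile scaling -0.28 (-0.59 to 0.021), so the interval then included equal levels. In 1 random draw of the wild-type library, thinned to the depth of the other, it was -0.16 (-0.52 to 0.20). A single draw adds its own sampling noise, so this change in value cannot be put down to depth. Eif2b2 exceeded Eif2ak3 1.57-fold in ratio (1.21 to 2.05) and Eif2s1 exceeded it 1.68-fold (1.17 to 2.42).

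Over all 36 pairs of the 9 genes, the ratio of ratios had an interval that excluded 1 in 11 pairs. The share over pairs of all genes was not computed. As the intervals of 51.9% of all tested genes excluded equal levels, the count of pairs says little about this group. Of these 11 pairs, Eif2b2 was part of 6 and Eif2s1 of 4, each time as the gene with the higher ratio. That direction was given beforehand, as theirs were the only 2 ratios above 1. The remaining pair was Eif2b5 over Eif2b4, at 1.34-fold (1.03 to 1.75). Pairs that share a gene share its reads, so these counts are not independent. Eif2b2 differed from each of the other eIF2B genes in this way, by 1.30-fold (1.03 to 1.64) over Eif2b5, 1.39-fold (1.01 to 1.93) over Eif2b3 and 1.52-fold (1.10 to 2.12) over Eif2b1.

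Set beside genes of like depth, all 9 lay within the ordinary spread between these libraries. For each gene the 500 genes closest in reads were taken. All 9 fell between the 10th and 90th percentile of the log2 ratios of those genes. By its making, such a band leaves out only 10% of genes at each end, so this count says little about the group. The highest position was that of Eif2b2, at the 86.6th percentile among genes with 683 to 807 reads. Eif2s1 followed at the 81.4th. The lowest was Eif2b4, at the 16.6th percentile among genes with 509 to 595 reads. Of those neighbours of Eif2b4, 24.6% had a log2 ratio at least as far from 0, and of the neighbours of Eif2b2 38.4% did. Eif2s3x lay at the 20.6th percentile and Eif2ak3 at the 22.4th.

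**Figure D4:**
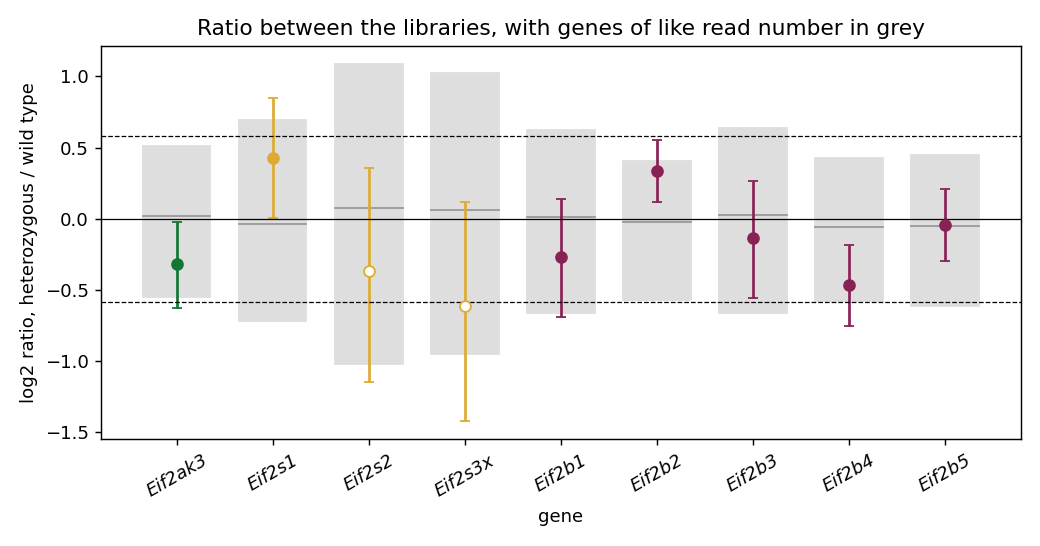
Log2 ratio of the 9 genes, heterozygous over wild type, with 95% counting intervals. Open points have fewer than 100 reads, grey boxes span the 10th to 90th percentile of the 500 genes closest in reads with their median as a line, and dashed lines mark 1.5-fold. All 9 points lie inside their grey box, which by its making leaves out only 10% of those genes at each end.

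**Figure D5:**
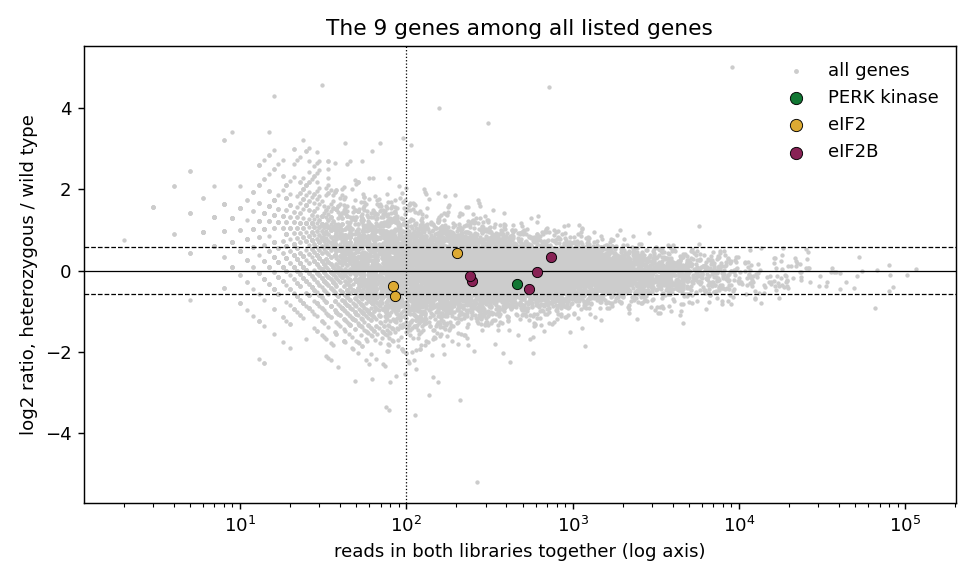
Log2 ratio, heterozygous over wild type, against the reads of both libraries together (log axis) for all 12530 genes in grey and for PERK, eIF2 and eIF2B in colour. Dashed lines mark 1.5-fold and the dotted line 100 reads. The 7 coloured genes right of the dotted line all lie between the dashed lines.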

How the data were processed

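Read counts per gene were deposited by the authors as whole numbers, and RPKM values beside them, per the file headers. Per the submitters' processing notes, the tools were Bowtie 1.2.2 and HTSeq 0.9.1 with build GRCm38. Settings, annotation, strand and counted feature are not given here. Gene lengths were recovered by dividing reads by RPKM. The counts of the mouse genes, without the 18 ERCC spike-ins, were scaled with TMM in edgeR 4.0.16 (R 4.3.3). Log2 ratios were computed after adding a library-size-scaled prior of 0.5 reads, with exact conditional binomial intervals at 95%. Ratios of ratios had exact conditional intervals, and single counts exact Poisson intervals. The ratio and interval code was tested on simulated data.

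The genes and lists were chosen with earlier results of these data known. All 9 listed genes are named. The fixed lists of pathway genes and cell type markers were not analysed here, because no table paired their symbols with identifiers. The symbols of the 9 genes came with the list of identifiers, and positions and promoter windows were taken from RefSeq tables on GRCm38.p6 by symbol. The alternatives were total-count, DESeq2 1.42.0, upper-quartile and spike-in scaling, other read, fold and interval limits, no prior count, RPKM ratios, 1 thinned draw of the wild-type library and each gene left out of its complex. Other steps ran in Python 3.11.15 (scipy 1.17.1, pandas 2.3.3, numpy 2.4.6), with figures from matplotlib 3.10.9.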

Additional observations from a re-analysis of the deposited data

Results flagged for a closer look

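The ERCC spike-ins, which lie outside the mouse genes compared here, made up 0.650% of the listed reads in the heterozygous library and 0.00669% in the wild-type library. No group had enough libraries for a test of a library that stands apart.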

How the results depend on the processing

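Setting spike-in scaling apart, the 7 alternatives for the log2 ratio of each of the 9 genes gave 63 values. The 9 ratios of RPKM, which have no interval, lay within the main intervals. Of the 54 others, 49 also did, with no change in whether the interval excluded equal levels. Eif2b5 had either sign, from -0.075 to 0.013. In 4 the interval came to include equal levels, for Eif2ak3 with total-count and upper-quartile scaling and, with the wild-type library thinned to the depth of the other, for Eif2ak3 and Eif2s1. In 1, Eif2s3x with that thinning, at -0.84 (-1.73 to -0.027), it came to exclude them. Eif2b2 stayed between 0.31 and 0.39 and Eif2b4 between -0.49 and -0.41. The log2 ratio of PERK was -0.26 with total-count scaling, -0.28 with upper-quartile scaling and -0.16 after thinning. The sum of eIF2 was -0.49 without Eif2s1 and the sum of eIF2B was -0.23 without Eif2b2. The count of genes called was 0 in each direction under every alternative except no fold limit, with 2 higher and 2 lower, and spike-in scaling, with 0 higher and 7 lower. Spike-in scaling, chosen after seeing the data, shifts every gene by 1 common factor. It put Eif2s1 at -6.11, Eif2b2 at -6.22, eIF2 at -6.51, eIF2B at -6.60 and PERK at -6.87, and called all 9726 tested genes lower. In the order of levels, 7 of the 9 genes kept their rank in the thinned wild-type library. Without scaling to length 3 genes kept it in wild type and 5 in the heterozygote, as the length differs between genes. No paired analysis was possible because there is 1 library per genotype. For the same reason no replicate could be left out. The planned counts of pathway genes were not run. Depth limits Eif2s2 and Eif2s3x most, with 22 and 20 heterozygous reads.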
